A study of Mus musculus with 4 samples.

Results

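The genes described here are 10 heat shock genes of the mouse, namely Hspa2, Hspa1l, Hspa1a, Hspa1b, Hspa4, Hspa4l, Hspa8, Hsph1, Hsf1 and Hsf2. They were chosen by name from the 23420 genes of the deposited expression table, and all 10 were listed there. RNA was sequenced from pachytene spermatocytes, the meiotic prophase cells in which homologous chromosomes are paired, isolated by FACS from testes of wild-type (WT) C57BL/6 males of 23 weeks of age. After isolation the cells were cultured for 24 h with the solvent DMSO (Ctrl, 2 libraries) or with 10 µM AZ20, an inhibitor of the DNA damage response kinase ATR (AZ20, 2 libraries). Each library was made from 15000 cells, and by the methods the cells of a mouse were divided between both conditions. Replicate 1 of Ctrl was taken to pair with replicate 1 of AZ20 and replicate 2 with replicate 2. Neither the methods nor the sample titles state that equal numbers mark the same mouse. All 4 libraries therefore passed through dissociation, sorting and culture, at 34 °C by the sample labels and at 32 °C by the methods, and no uncultured or heat-shocked cells were analysed here.

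HSP70 proteins bind exposed hydrophobic stretches of client proteins and release them in a cycle driven by ATP. HSP40 proteins start this cycle by stimulating ATP hydrolysis, whereas proteins of the HSP110 class exchange the nucleotide and so reset it. In stressed cells, the transcription factor HSF1 forms trimers that bind inverted repeats of GAA upstream of the inducible heat shock genes. Male germ cells are known for HSP70 genes of their own, and HSPA2, which is made from the spermatocyte stage onwards, is required for spermatocytes to complete meiosis.

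The HSP70 members resemble each other strongly in sequence, which bears on how reads could be assigned to them. Over the whole coding sequence, Hspa1a and Hspa1b had 99.4% identical bases. Hspa1l had 82.7% identity with Hspa1a, whereas Hspa2 had 78.1% identity with Hspa1a, 74.6% with Hspa1l and 73.2% with Hspa8. The HSP110 class was more diverged, with 65.4% identity between Hspa4 and Hspa4l, 62.5% between Hspa4 and Hsph1 and 61.1% between Hspa4l and Hsph1. Hsf1 and Hsf2 had 49.2% identity. The stretch of 60 coding bases of Hspa2 that was most alike in the other HSP70 members is shown because it makes this likeness visible. It spans bases 76 to 135 of the Hspa2 coding sequence (chr12:76404609-76404668, plus strand, GRCm38), and it matched chr17:34977065-34977124 (plus strand) in Hspa1l, chr17:34971794-34971853 (minus strand) in Hspa1a, chr17:34958876-34958935 (minus strand) in Hspa1b and chr9:40801995-40802054 (plus strand) in Hspa8. Each lies within 1 exon, each line reads 5′ to 3′ on the coding strand, and capitals mark bases that differ from Hspa2.
Hspa2: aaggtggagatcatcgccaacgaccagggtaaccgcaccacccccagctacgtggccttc
Hspa1l: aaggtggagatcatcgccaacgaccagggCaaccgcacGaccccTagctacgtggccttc
Hspa1a: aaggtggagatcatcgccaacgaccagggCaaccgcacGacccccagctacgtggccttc
Hspa1b: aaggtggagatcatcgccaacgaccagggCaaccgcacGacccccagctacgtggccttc
Hspa8: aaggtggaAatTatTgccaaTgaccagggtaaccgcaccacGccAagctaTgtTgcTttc
Hspa1a and Hspa1b were identical to each other here and differed from Hspa2 at 2 bases, Hspa1l differed from Hspa2 at 3 bases and Hspa8 at 9.

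A read can be counted for a gene only if it aligns to a single place, since the authors kept unique alignments. Of the 150-base windows of its transcript, 40.5% in Hspa1b and 39.7% in Hspa1a also occurred in a transcript of a gene elsewhere, for the most part in each other. In Hspa8 this share was 56.0%, and most of it was with Gm26825, whereas it was 3.62% in Hspa1l and 0 in Hspa2, Hspa4, Hspa4l, Hsph1, Hsf1 and Hsf2. The values of Hspa1a, Hspa1b and Hspa8 are uncertain because of these shared windows. Reads were paired, and a pair covers more bases than a single window, so these shares may overstate the pairs that were lost. Hspa1b, Hspa1a and Hspa1l lie side by side on chromosome 17, with 9951 bases between Hspa1b and Hspa1a and 546 bases between Hspa1a and Hspa1l, which are transcribed away from each other. Of the exon bases of Hspa1l, 71.9% are overlapped on the other strand by Gm10501, which the table does not list. The library kit does not keep the strand, so reads of Hspa1l and Gm10501 cannot be told apart. The same holds for 19.0% of the exon bases of Hspa1a, which Gm20481, also not listed, overlaps on the other strand.

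The promoters of the inducible members are shown because they hold a pair of inverted GAA units, a part of the repeats that HSF1 trimers are known to bind. RefSeq promoters (GRCm38.p6) were matched for 8 of the 10 members, and the 250 bases before each transcript start were searched for GAANNTTC and TTCNNGAA, both of which read the same on either strand. GAANNTTC occurred in 6.69% and TTCNNGAA in 7.17% of all 32851 promoters of this length. Hspa1a and Hspa1b each held 1 GAANNTTC match, beginning at base -104 relative to the start, and their promoters differed at 3 bases. Hsph1 held 1 TTCNNGAA match, beginning at base -54 or -33 depending on which annotated start is taken. No match was found in these windows for Hspa2, Hspa1l, Hspa4, Hspa4l and Hsf2, and Hspa8 and Hsf1 were not analysed here. Longer runs of 3 units, each inverted relative to the one before, were rarer. They occurred in 0.247% or 0.244% of all promoters, depending on the first unit. None of the windows of the 8 matched members held such a run, those of Hspa1a, Hspa1b and Hsph1 included. By the GENCODE annotation, only 56 of the 250 bases of Hspa2 lie before its first transcript start. The window of Hspa4l lies wholly within the annotated gene, so sequence before these earlier starts was not searched. The lines below give Hspa1a (chr17:34972157-34972406, minus strand), its neighbour Hspa1l (chr17:34972453-34972702, plus strand) and 30 bases around the match of Hsph1 (chr5:149636351-149636380, minus strand), with the match in capitals. The match is a description of these letters and was not measured as a binding site.
Hspa1a: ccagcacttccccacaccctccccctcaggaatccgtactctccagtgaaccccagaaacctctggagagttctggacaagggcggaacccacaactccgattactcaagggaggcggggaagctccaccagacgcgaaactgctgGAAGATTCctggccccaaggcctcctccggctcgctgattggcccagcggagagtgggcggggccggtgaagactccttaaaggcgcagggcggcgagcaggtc
Hspa1l: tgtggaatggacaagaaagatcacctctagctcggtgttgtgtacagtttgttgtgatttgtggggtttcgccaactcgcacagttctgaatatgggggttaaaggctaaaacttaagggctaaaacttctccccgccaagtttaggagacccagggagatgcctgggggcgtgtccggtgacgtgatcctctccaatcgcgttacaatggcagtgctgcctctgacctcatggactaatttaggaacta
Hsph1: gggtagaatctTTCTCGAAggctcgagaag

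The depth recovered from the deposited TPM (a read count scaled for transcript length and library size) was 14091126 reads for Ctrl replicate 1, 15938259 for Ctrl replicate 2, 20424249 for AZ20 replicate 1 and 18738122 for AZ20 replicate 2. All 9 markers of pachytene spermatocytes passed the filter on low values, with a summed level of 10161 and 10548 TPM in Ctrl and 10894 and 10711 TPM in AZ20, and Ldhc, the germ cell lactate dehydrogenase, was the highest. Markers of other testicular cells were near 0. The summed level lay between 0.102 and 0.794 TPM for Sertoli cells (Sox9, Wt1, Gata1, Rhox5 and Fshr at 0 in every library), between 0.866 and 2.31 TPM for Leydig cells (all from Star), between 0.655 and 2.24 TPM for spermatogonia (Stra8, Dmrt1 and Sohlh1 at 0), between 0.659 and 1.47 TPM for macrophages, between 0.598 and 1.76 TPM for peritubular myoid cells and between 0.315 and 1.40 TPM for endothelial cells. Round spermatid markers were present. Their summed level was 366 and 151 TPM in Ctrl and 773 and 252 TPM in AZ20, and it was higher in AZ20 within both pairs. Immediate early genes, which rise when tissue is dissociated, summed to between 1.69 and 3.49 TPM. Since RNA was taken after 24 h of culture, this sum does not show their level at dissociation. In bulk RNA, fewer cells of a type and less RNA per cell cannot be told apart.

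Hspa2 was by far the most abundant member, and the stress-inducible HSP70 genes Hspa1a and Hspa1b were nearly silent in all 4 libraries. Hspa2 was followed, in order of the mean level in Ctrl, by Hspa4l, Hspa4, Hspa8, Hspa1l, Hsph1, Hsf2, Hsf1, Hspa1b and Hspa1a, over a range from 1193 TPM to 0. The first 4 steps of this order held in each library, because the lowest library of Hspa2, Hspa4l, Hspa4 and Hspa8 lay above the highest library of the next gene. Below them the order did not hold beyond the spread between libraries for Hspa1l and Hsph1 or for Hsf2 and Hsf1, whose ranges overlapped, and the lowest library of Hsph1 (11.1 TPM) was just above the highest of Hsf2 (11.0 TPM). Whether Hspa8 truly lies below Hspa4 is uncertain. Of the windows of Hspa8, 56.0% were shared with other genes, against 0 in Hspa4, so Hspa8 may be understated. Among the 10316 genes with a mean TPM above 1 in either condition, Hspa2 ranked 158 in Ctrl and 200 in AZ20.

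**Figure D1:**
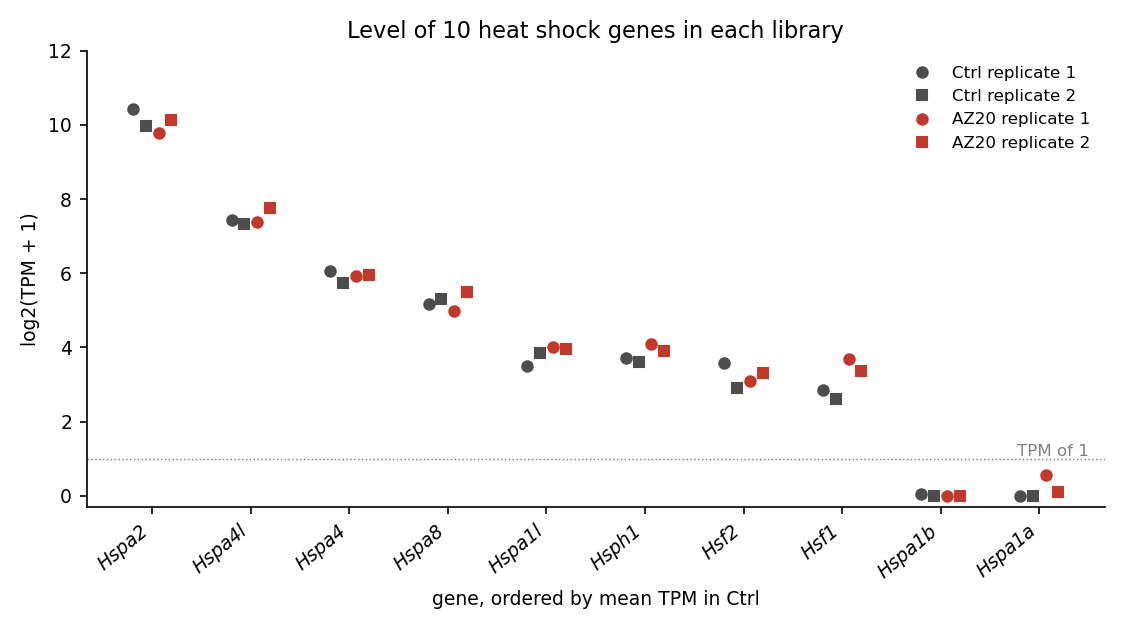
Level of the 10 heat shock genes in each of the 4 libraries, as log2(TPM + 1) on the vertical axis, with genes ordered from left to right by their mean TPM in Ctrl. Grey points are Ctrl and red points AZ20, circles are replicate 1 and squares replicate 2, and the dotted line marks a TPM of 1. Hspa2 stands above all other members in every library, and Hspa1a and Hspa1b lie below the dotted line.

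To ask whether inhibition of ATR altered these genes, the log2 change between AZ20 and Ctrl was fitted with limma on log2(TPM + 1), with p-values adjusted by the Benjamini-Hochberg method over the 10316 genes, and a gene was called when it changed at least 2-fold with an adjusted p under 0.05. Of the 10 members, 8 had a mean TPM above 1 and were tested, and none of the 8 was called higher or lower. Over all genes tested, 2.28% were called higher and 0.0485% lower. The 10 members all lie on autosomes, whereas these shares include X-linked genes. The paper found most expressed X-linked genes upregulated by AZ20 and hardly any differentially expressed genes on autosomes. A share over autosomal genes alone was not analysed here. Without adjustment, 1 member (Hsf1) was higher and 0 were lower at a p under 0.05, against 8.03% and 1.13% of all genes tested. The median change of the 8 members was 0.12 on the log2 scale, beside 0.07 for all genes tested. In 3 of the 8 (Hspa1l, Hsph1 and Hsf1), both AZ20 libraries lay above both Ctrl libraries, which was also the case for 26.4% of all genes tested, and no tested member showed the opposite, against 11.7% of all genes. The count of called members was also 0 with the replicate number as a block, where 4.11% of all genes were called higher and 0.223% lower, and with voom on the recovered reads, where 1.94% and 0.00969% were.

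**Figure D2:**
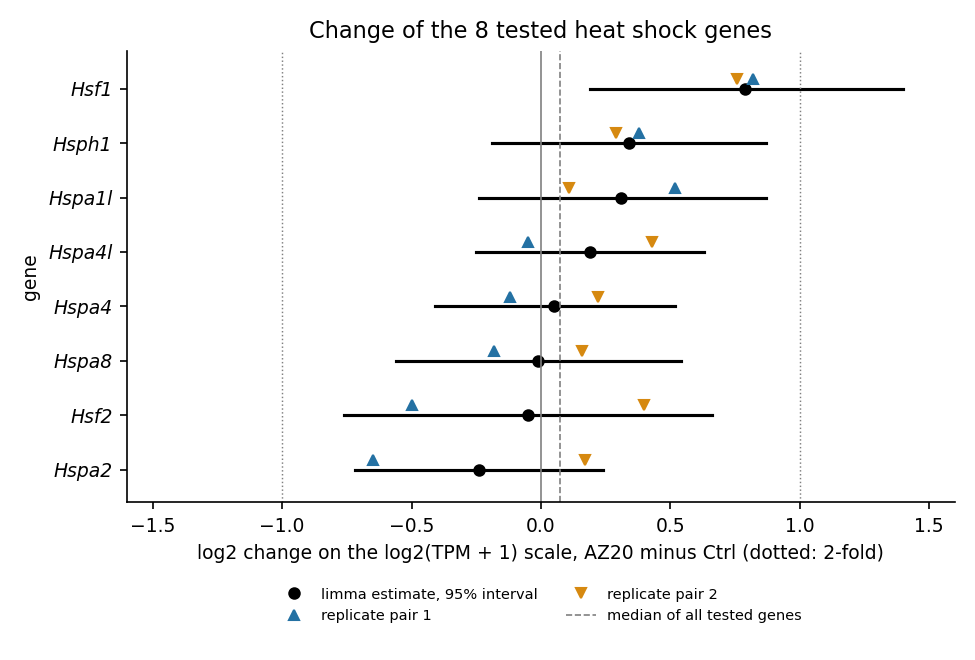
Log2 change between AZ20 and Ctrl of the 8 tested heat shock genes on the log2(TPM + 1) scale, with AZ20 above Ctrl to the right of 0. Black points and lines are the limma estimate and its 95% interval, triangles are the 2 replicate pairs, the dashed line is the median of all tested genes and dotted lines mark a 2-fold change. The interval of Hsf1 (0.19 to 1.40) lies above 0, the other 7 intervals include 0, and the 2 pairs of Hspa2 lie on either side of 0 (-0.65 and 0.17).

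Hspa2, whose product is the HSP70 of the spermatocyte, was at 1390 and 995 TPM in Ctrl and at 883 and 1118 TPM in AZ20. The groups overlapped, since Ctrl replicate 1 was the highest library, AZ20 replicate 1 the lowest, and the replicate 2 libraries lay between them. The Ctrl mean of 1193 ± 279 TPM (SD, n = 2) compared with an AZ20 mean of 1000 ± 166 TPM (SD, n = 2), and the log2 change was -0.24 (SE 0.20, limma adjusted p = 0.82). Its 95% interval ran from 0.606-fold to 1.18-fold, so neither a 2-fold rise nor a fall to 0.5 of the Ctrl level lay within it. In pair 1 Hspa2 was at 0.635 of its Ctrl level and in pair 2 at 1.12. Without Ctrl replicate 1 the log2 change was -0.0028, and without Ctrl replicate 2 it was -0.48 (limma adjusted p = 1.0 and 0.63).

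Counting error was small beside the spread between libraries. Hspa2 took 37596 of all reads on genes in Ctrl replicate 1, a share of 0.267% (95% Wilson interval 0.264 to 0.270). Its share was 0.193% (0.191 to 0.195) in Ctrl replicate 2, 0.168% (0.167 to 0.170) in AZ20 replicate 1 and 0.210% (0.208 to 0.212) in AZ20 replicate 2. These intervals cover counting error only, and the intervals of the libraries of a condition did not overlap.

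Hspa1l, an HSP70 gene known for its transcripts in spermatids, was at 10.3 and 13.4 TPM in Ctrl and at 15.2 and 14.5 TPM in AZ20. Both AZ20 libraries were above both Ctrl libraries, but Ctrl replicate 2 was close to AZ20 replicate 2. The log2 change was 0.31 (95% interval -0.24 to 0.87, limma adjusted p = 0.796). Without Ctrl replicate 1 it was 0.14, and without Ctrl replicate 2 it was 0.48 (limma adjusted p = 0.967 and 0.738). The summed level of the round spermatid markers was higher in AZ20 within both pairs as well, although not every marker was. Within Ctrl, however, this sum was higher in replicate 1 (366 TPM) than in replicate 2 (151 TPM), whereas Hspa1l was lower in replicate 1. Within AZ20, both the sum (773 and 252 TPM) and Hspa1l were higher in replicate 1. Tnp2, the transition protein gene that was the highest of these markers, was at 191 and 81.0 TPM in Ctrl and at 426 and 123 TPM in AZ20 (log2 change 0.87, limma adjusted p = 0.771, and 0.00766 with the replicate block). All 7 spermatid markers had an estimated change above 0, with a median of 0.67, but none was called in the main fit. With the replicate block, Prm1, which had the highest change of them, met the calling rule (log2 change 1.11, limma adjusted p = 0.000766). The part of the spermatid markers in the Hspa1l values was not tested.

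Hspa4l, a member of the HSP110 class that is abundant in testis, was at 173 and 160 TPM in Ctrl and at 166 and 216 TPM in AZ20. The groups overlapped, with AZ20 replicate 2 the only library above 200 TPM. The log2 change was 0.19 (95% interval -0.25 to 0.63, limma adjusted p = 0.846). It was 0.0019 without AZ20 replicate 2 and 0.37 without AZ20 replicate 1 (limma adjusted p = 1.0 and 0.637). Summed over the 3 testis-enriched members, Hspa2, Hspa1l and Hspa4l, the level was 1573 and 1169 TPM in Ctrl and 1064 and 1348 TPM in AZ20, and these ranges overlapped too.

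The stress-inducible HSP70 genes gave very few reads. Hspa1a had 0 reads in both Ctrl libraries, where 3 reads would have been 0.106 and 0.0929 TPM, and it had 19 reads (0.467 TPM) in AZ20 replicate 1 and 3 reads (0.0817 TPM) in AZ20 replicate 2. The mean in AZ20 was 2.75 times a floor of 3 reads per library in Ctrl. As a lower bound on the change, this ratio rests on AZ20 replicate 1, since AZ20 replicate 2 held only 3 reads. Hspa1b had 1 read in Ctrl replicate 1 (0.0353 TPM) and 0 reads in the other libraries, so both conditions were at or under the floor. Neither gene passed the filter on low values, and neither was tested. AZ20 replicate 1 was also the most deeply sequenced library and had the highest level of round spermatid markers. The part of either in the 19 reads of Hspa1a was not tested, nor was that of Gm20481, which overlaps Hspa1a on the other strand.

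Hsph1, the heat-inducible member of the HSP110 class, was clearly detected, unlike Hspa1a and Hspa1b. It was at 12.1 and 11.1 TPM in Ctrl and at 16.2 and 13.9 TPM in AZ20. The groups did not overlap, and the AZ20 library was at 1.33 of the Ctrl level in pair 1 and at 1.25 in pair 2. The log2 change of 0.34 (95% interval -0.19 to 0.87) did not pass the test (limma adjusted p = 0.755). Summed over Hspa1a, Hspa1b and Hsph1, the level was 12.2 and 11.1 TPM in Ctrl and 16.6 and 14.0 TPM in AZ20, of which Hsph1 made up nearly all. An exact permutation test over the 4 libraries gave p = 0.33, two-sided, the smallest that 2 against 2 libraries allow. This test does not use the pairing, and an exact permutation within the 2 pairs cannot give a two-sided p below 0.5.

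Testis-enriched and stress-inducible members were next set against each other. The mean log2 change was 0.09 over the 3 testis-enriched members and 0.22 over the 3 stress-inducible members, a difference of -0.13. The value for the stress-inducible members includes Hspa1a and Hspa1b, which were under the filter, so it depends on the pseudocount, and with 0.1 in place of 1 the difference was -0.516. The difference was -0.36 in pair 1 and 0.10 in pair 2, so the pairs went in opposite directions. Without AZ20 replicate 1 it was 0.0846. No test was made of this score.

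Neither constitutive member passed the test. Hspa8, the cognate HSP70 that most cells make without stress, was at 35.0 and 38.9 TPM in Ctrl and at 30.7 and 43.7 TPM in AZ20. Both Ctrl libraries lay between the AZ20 libraries, and the log2 change was -0.01 (95% interval -0.56 to 0.54, limma adjusted p = 0.997). Hspa4, the HSP110 member with broad expression, was at 65.4 and 52.2 TPM in Ctrl and at 60.3 and 61.0 TPM in AZ20. Here both AZ20 libraries lay between the Ctrl libraries, and the log2 change was 0.05 (95% interval -0.41 to 0.52, limma adjusted p = 0.971).

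Within a library, levels per length can be set side by side. Hspa2 made up 96.8% and 95.0% of the summed TPM of the 5 HSP70 members (Hspa2, Hspa1l, Hspa1a, Hspa1b and Hspa8) in Ctrl and 95.0% in both AZ20 libraries. The means were 95.9% ± 1.30 (SD, n = 2) and 95.0% ± 0.0253 (SD, n = 2), and an exact two-sided permutation test gave p = 1.0, both over the libraries and within the pairs. The level of Hspa2 was 39.8 and 25.6 times that of Hspa8 in Ctrl and 28.8 and 25.6 times in AZ20, although the level of Hspa8 may be understated because of the reads it shares with other genes. With Hspa4, Hspa4l and Hsph1 added, the share of Hspa2 was 82.5% and 78.3% in Ctrl and 75.3% and 76.2% in AZ20. These groups did not overlap, and the difference of -4.62 percentage points had p = 0.33 by the exact permutation test, the smallest possible. Among the 3 genes of the HSP110 class, Hspa4l held 69.0% and 71.6% of the summed TPM in Ctrl and 68.5% and 74.2% in AZ20.

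Hsf1 had the largest estimated change of the 8 tested members. This gene, which encodes the transcription factor of the heat shock response, was at 6.24 and 5.07 TPM in Ctrl and at 11.8 and 9.29 TPM in AZ20. Both AZ20 libraries were above both Ctrl libraries, and Hsf1 was at 1.89 and 1.83 of its Ctrl level in the 2 pairs. The Ctrl mean of 5.65 ± 0.826 TPM (SD, n = 2) rested on 127 and 118 reads, and the AZ20 mean of 10.5 ± 1.77 TPM (SD, n = 2) on 346 and 246. The log2 change of 0.79 (SE 0.25) had an unadjusted p of 0.0175 and did not pass the test over all genes (limma adjusted p = 0.361). With the replicate block the limma adjusted p was 0.0981, and over all alternatives it ranged from 0.0981 to 0.707 with a log2 change between 0.58 and 0.95.

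**Figure D3:**
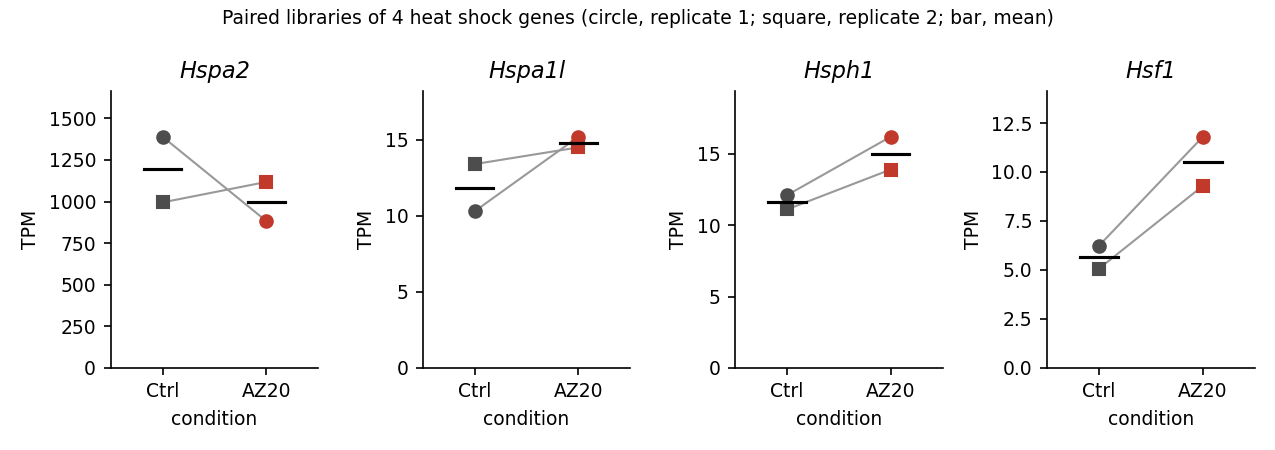
TPM of Hspa2, Hspa1l, Hsph1 and Hsf1 in Ctrl (grey) and AZ20 (red), with 1 panel per gene, a vertical axis from 0 in TPM, and lines joining the libraries of a pair (circles, replicate 1, and squares, replicate 2). Black bars are the group means. The lines of Hspa2 cross, with means of 1193 and 1000 TPM, whereas both lines of Hsf1 run upwards, from 6.24 to 11.8 TPM and from 5.07 to 9.29 TPM.

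Hsf2, which encodes a heat shock factor of germ cells and development, was at 11.0 and 6.51 TPM in Ctrl and at 7.53 and 8.92 TPM in AZ20. The AZ20 libraries lay between the Ctrl libraries, and the log2 change was -0.05 (95% interval -0.76 to 0.66, limma adjusted p = 0.984). The ratio of Hsf2 to Hsf1 was 1.77 and 1.28 in Ctrl and 0.638 and 0.960 in AZ20, so the order of both genes differed between the conditions (exact permutation p = 0.33, the smallest possible). The most abundant heat shock factor was neither of them. Hsf5, a factor of spermatocytes that was picked out after its values were seen, was at 710 and 533 TPM in Ctrl and at 478 and 716 TPM in AZ20 (log2 change -0.07, limma adjusted p = 0.966). Hsf5 was 114 and 105 times the level of Hsf1 in Ctrl and 40.6 and 77.1 times in AZ20.

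The other genes of the pathway were taken from lists of 77 chaperones, chaperone regulators, heat shock factors, targets of HSF1 and partners of HSPA2, of which 76 were listed and 64 tested. None of the 64 was called higher or lower, against 2.28% and 0.0485% of all genes tested, X-linked genes included. Of the 64, 32 had a change above 0 and 32 below. Their median log2 change was 0.01, beside 0.07 for all genes tested. Without adjustment, 3 were higher and 2 lower at a p under 0.05, against 8.03% and 1.13% of all genes tested. Those higher were Hspa13, Chordc1 and Cdk1, and Ubb was among those lower.

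Of the other HSP70 family, 6 of 7 genes were tested, with a median log2 change of 0.09. Hspa5, the HSP70 of the endoplasmic reticulum and the highest of them, was at 287 and 291 TPM in Ctrl and at 229 and 247 TPM in AZ20. Both AZ20 libraries were lower, and the log2 change was -0.28 (limma adjusted p = 0.685). Hspa13, a microsomal HSP70, was at 13.8 and 11.4 TPM in Ctrl and at 18.0 and 24.3 TPM in AZ20, with the highest log2 change of this list (0.70, limma adjusted p = 0.42). Of the HSP70 regulators, 11 of 12 were tested, with changes from Bag3, a co-chaperone of stressed cells (-0.60, limma adjusted p = 0.75), to Hspbp1, a nucleotide exchange factor (0.37, limma adjusted p = 0.771). The highest of this list, Bag1, was at 162 and 170 TPM in Ctrl and at 158 and 187 TPM in AZ20.

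The HSP40 list, with 16 of 18 genes tested, was split evenly, with 8 changes above 0 and 8 below. Dnajb3, a germ cell HSP40 and the highest of the list, was at 551 and 506 TPM in Ctrl and at 615 and 368 TPM in AZ20, so the groups overlapped (log2 change -0.15, limma adjusted p = 0.921). The extremes were Dnajb11, an HSP40 of the endoplasmic reticulum (-0.26, limma adjusted p = 0.779), and Dnajb7 (0.71, limma adjusted p = 0.819), and Dnajb7 ranged from 0.365 to 4.18 TPM within Ctrl. Of HSP90 and its partners, 8 of 9 were tested. The co-chaperone gene Ptges3 (p23) was the highest, at 5793 and 4663 TPM in Ctrl and at 4102 and 5531 TPM in AZ20, Chordc1 had a log2 change of 0.49 (limma adjusted p = 0.495) and Cdc37, which brings kinases to HSP90, one of -0.15 (limma adjusted p = 0.933).

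Small heat shock proteins ranged from abundant genes to genes at 0. Hspb11, which encodes a component of the intraflagellar transport machinery, was at 594 and 583 TPM in Ctrl and at 566 and 515 TPM in AZ20, and Hspb9, a testis gene, was at 647 and 460 TPM and at 558 and 403 TPM. Neither passed the test (limma adjusted p = 0.873 and 0.874), and Hspb2, Hspb3 and Hspb8, named after their values were seen, were listed at 0 in all 4 libraries. Only 5 of the 11 genes of this list were tested, among them Hspd1 of the mitochondrial chaperonin (log2 change 0.79, limma adjusted p = 0.684, from 0.297 to 2.36 TPM). Hspd1 rested on 7 to 80 reads per library, and windows shared with other genes were analysed for the members only. All 9 genes of the cytosolic chaperonin TRiC were tested, with changes from -0.25 for Tcp1 (limma adjusted p = 0.655) to 0.20 for Cct2 (limma adjusted p = 0.85). Tcp1 was at 1545 and 1620 TPM in Ctrl and at 1359 and 1303 TPM in AZ20, without overlap.

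Among the other heat shock factors and their regulators, 4 of 6 were tested. Hsbp1, which encodes a small protein that binds HSF1 trimers, was at 3844 and 3380 TPM in Ctrl and at 3148 and 3461 TPM in AZ20 (log2 change -0.13, limma adjusted p = 0.849). Hsfy2 was at 1.70 and 1.18 TPM in Ctrl and at 7.07 and 0.979 TPM in AZ20, so its log2 change of 0.72 (limma adjusted p = 0.826) came from 1 library. Of the 14 targets of HSF1 outside the members, 12 were tested, with 4 changes above 0, 8 below and a median of -0.11. Ubb, a polyubiquitin gene and the highest of this list, was at 4523 and 6665 TPM in Ctrl and at 3894 and 3394 TPM in AZ20. Both AZ20 libraries were lower, with a log2 change of -0.59 that did not pass the test (limma adjusted p = 0.366), whereas with the replicate block the adjusted p was 0.0164 at a change below 2-fold. Of these 12 targets, 3 were higher and 5 lower in both AZ20 libraries, against 26.4% and 11.7% of all genes tested. Any link of these values to the level of Hsf1 was not tested.

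Partners of HSPA2 in spermatocytes were all tested. Cdk1, the kinase of the entry into the meiotic divisions, which HSPA2 is known to help assemble with cyclin B, was at 56.4 and 86.7 TPM in Ctrl and at 110 and 115 TPM in AZ20. Both AZ20 libraries were higher, with a log2 change of 0.68 (limma adjusted p = 0.407). Ccnb1, which encodes cyclin B1, was at 25.5 and 34.6 TPM in Ctrl and at 30.3 and 34.1 TPM in AZ20 (log2 change 0.11, limma adjusted p = 0.939). Shcbp1l, the highest of the 4, was at 294 and 241 TPM in Ctrl and at 328 and 269 TPM in AZ20, with overlapping groups (log2 change 0.16, limma adjusted p = 0.875).

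**Figure D4:**
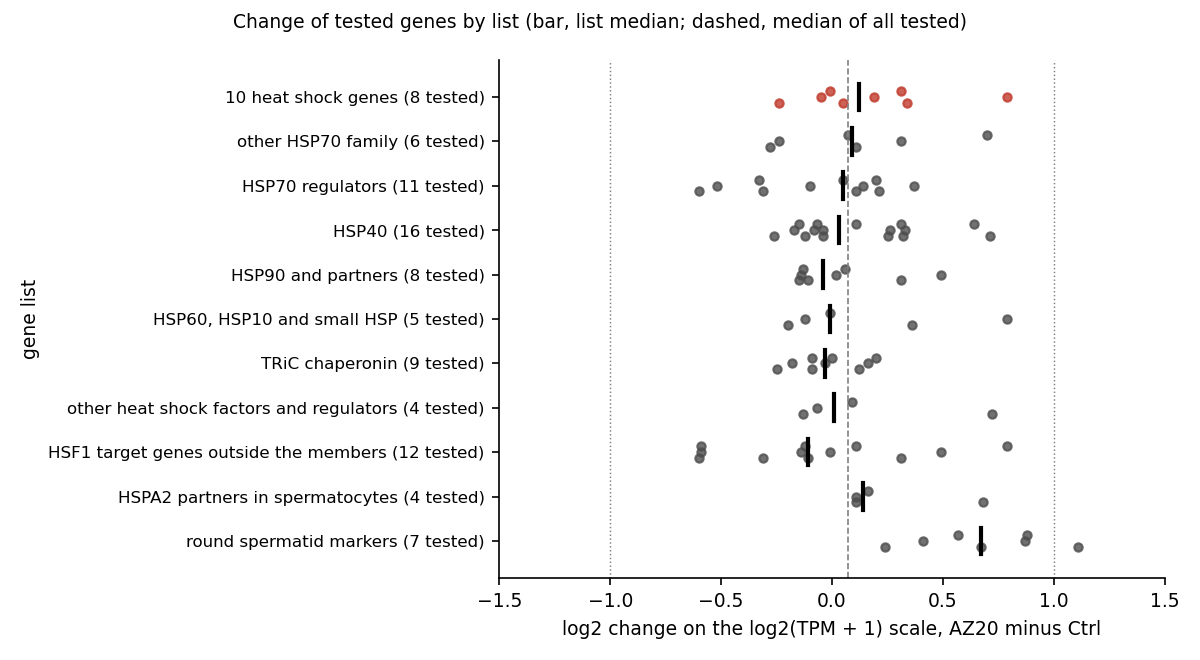
Log2 change between AZ20 and Ctrl on the log2(TPM + 1) scale (horizontal axis) of each tested gene, grouped by gene list (vertical axis), with the 10 heat shock genes in red, the other lists in grey, list medians as black bars, the median of all tested genes as a dashed line and a 2-fold change as dotted lines. All points of the heat shock genes and chaperone lists lie between the dotted lines, with list medians from -0.11 to 0.14, and the round spermatid markers have a median of 0.67.

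The genes whose values were most like those of Hspa2 were found by the Euclidean distance of log2(TPM + 1) over the 4 libraries, among the 10308 other genes tested. The nearest was 4933434E20Rik, at a distance of 0.25, with 1219 and 1097 TPM in Ctrl and 905 and 1166 TPM in AZ20. It was followed by Ndufa5 (0.31), Ndufb4 (0.35), Coa3 (0.37) and Riiad1 (0.39). Ndufa5 and Ndufb4 encode subunits of complex I of the respiratory chain, and Coa3 an assembly factor of cytochrome c oxidase. None of the 5 was called, with log2 changes from -0.17 to -0.09. The distance is over 4 libraries of 1 cell type and counts the level as well as its pattern.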

How the data were processed

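RNA-seq was measured in 4 libraries of cultured pachytene spermatocytes (2 Ctrl, 2 AZ20). Paired reads of 150 bp were prepared with the NEBNext Single Cell/Low Input kit, trimmed by the authors with Trimmomatic (0.39), aligned to GRCm38 with STAR (2.5.4b, unique alignments) and counted with featureCounts (2.0.1) on the UCSC refGene annotation. The authors deposited TPM per library, computed from the counts, and each column sums to 1000000. A total of 92 rows without a gene name were left out.

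Changes were fitted on log2(TPM + 1) with limma (3.58.1, R 4.3.3) with an intensity trend, over 10316 genes with a mean TPM above 1 in either condition. On this scale the change of low genes is understated. Whole reads were recovered from TPM, because every library uses the same length for a gene. For each gene, the smallest read counts that were whole within 0.01 in every library were taken. A wide search nearly always finds such counts, so finding them for all 16857 genes above 0 does not check them. A factor common to all reads of a gene may also go unseen. The recovered reads gave the depth, Wilson intervals and a voom alternative. Exact permutation tests were two-sided and over all libraries, and a version within pairs was added after seeing the data. The limma script was tested on simulated data. Positions, exons and transcripts came from GENCODE M21 and promoters from RefSeq. Other values were computed in Python 3.11.15 with scipy 1.17.1, numpy 2.4.6 and pandas 2.3.3.

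The members and lists were chosen with earlier results of these data known. Named were all members, the highest gene in Ctrl and the highest and lowest change of each list, any called gene, and the 5 genes most like Hspa2. Genes named outside this rule are marked as picked after their values were seen. A gene of the lists enters the counts but is not reported here by name. The replicate number was taken to mark cells of the same mouse, which the methods and sample titles do not state. Deviations from the group means correlated at 0.229 between libraries of the same number. The replicate number was left out of the fit and added as a block in an alternative. Other alternatives were the pseudocount (0.1), scaling, quantile normalization, the filter on TPM, thresholds, voom, and leaving out each library.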

Additional observations from a re-analysis of the deposited data

How the results depend on the processing

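Over 12 alternative fits of the 8 tested members (96 values), no limma adjusted p fell below 0.0981, and none of the members or chaperone genes was called higher or lower in any of these fits. Without a threshold on the change and without adjustment, 1 member was higher, and 3 chaperone genes were higher and 2 lower. In 7 of the 96 the sign differed from that reported. Hspa4 was at -0.03 (log2) with median ratio scaling and with quantile normalization, and under the latter Hspa1l was at 0.14 and Hsph1 at 0.16. Without 1 library, Hspa4 ranged from -0.11 to 0.21, Hspa8 from -0.26 to 0.24, Hsf2 from -0.39 to 0.29, Hspa4l from 0.0019 to 0.37, Hspa1l from 0.14 to 0.48, Hsph1 from 0.24 to 0.44, Hsf1 from 0.63 to 0.95 and Hspa2 from -0.48 to -0.0028. The share of Hspa2 among HSP70 genes differed by between -1.81 and 0.0212 percentage points when 1 library was left out, and by -4.62 with the HSP110 class in the denominator. The difference between testis-enriched and stress-inducible members was -0.516 with a pseudocount of 0.1, because Hspa1a then weighs more, and between -0.345 and 0.0846 when 1 library was left out. With the replicate block, Hspa2 kept its log2 change of -0.24 (limma adjusted p = 0.697), no call of a member or chaperone gene changed, and calls over all genes went from 235 to 424 higher and from 5 to 23 lower. Voom on the recovered reads called 200 higher and 1 lower. Median ratio scaling shifted the median of all genes from 0.07 to -0.00186. With 2 libraries per condition, only large changes could pass, and Hspa1a and Hspa1b were limited by their reads.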
